A study of Mus musculus with 8 samples.

Results

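Tyrosinase (Tyr), tyrosinase-related protein 1 (Tyrp1) and dopachrome tautomerase (Dct) form the tyrosinase family, and Pmel and Mlana encode proteins of the melanosome's internal fibres and their maturation. These 5 genes were followed in tissue of the embryonic mouse optic fissure, a cleft on the underside of the optic cup whose edges fuse as the eye forms. All probe sets annotated to the 5 symbols were taken, which gave 9 of the 45101 probe sets on the array: 3 each for Tyr and Tyrp1 and 1 each for Dct, Pmel and Mlana. All 9 passed the filter on low mean signal and were among the 27022 tested. The 3 stages E10.5, E11.5 and E12.5 were measured in wild-type C57BL/6 embryos with no treatment, where the letter E stands for embryonic day, with 3, 3 and 2 arrays. Fissure tissue was laser-captured from frozen sections, and each array held amplified RNA pooled from 3 embryos. The labels name the arrays of a stage A to C and call them biological replicates, but they differ on whether the pooled embryos shared a litter. If they did, or if arrays shared embryos, p-values measure only the spread between these arrays.

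Melanin is made in melanosomes. Tyr carries out the first, rate-limiting oxidations of tyrosine, and Dct and Tyrp1 act on later intermediates of the eumelanin branch. Pmel is cut into fragments that assemble into the fibrils on which melanin is laid down, and Mlana is a small melanosomal membrane protein that takes part in Pmel processing. In the eye these genes are used by the retinal pigment epithelium, the outer layer of the optic cup, which in mice begins to pigment around these stages, and later by melanocytes of neural crest origin. Mitf, a basic helix-loop-helix factor, is their best-known activator.

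Signals were compared on the log2 scale, on which a difference of 1 is a doubling of signal. The 8 array medians lay between 4.37 and 4.48, whereas the 99th percentile lay between 12.5 and 12.9 at E10.5, between 11.2 and 12.4 at E11.5 and between 12.4 and 12.6 at E12.5. For Gapdh control probes, the log2 signal near the 3 prime end exceeded that near the 5 prime end, a sign of short RNA after amplification, by 4.19 to 4.71 at E10.5, 3.35 to 4.63 at E11.5 and 4.78 to 5.17 at E12.5. For Actb this difference was 6.83 to 6.96 at E10.5, 5.45 to 6.61 at E11.5 and 6.88 to 7.21 at E12.5. E11.5 arrays thus did not overlap those of E12.5 on either control, nor those of E10.5 on Actb, the comparison in which Tyr rose. The part of RNA quality in the differences below was not tested. In captured tissue a larger pigmented area and more RNA per cell cannot be told apart. With 8 arrays, precision is limited throughout.

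The RefSeq promoter table (build GRCm38.p6) held 3 of the 5 genes, and they are shown because they share a run of bases and because their signals moved unequally. Each window covers 250 bases before to 50 bases after the start used in that table, on the gene's own strand, and capitals mark the longest run of bases found in all 3.

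Tyr (chr7:87493463-87493762, minus strand): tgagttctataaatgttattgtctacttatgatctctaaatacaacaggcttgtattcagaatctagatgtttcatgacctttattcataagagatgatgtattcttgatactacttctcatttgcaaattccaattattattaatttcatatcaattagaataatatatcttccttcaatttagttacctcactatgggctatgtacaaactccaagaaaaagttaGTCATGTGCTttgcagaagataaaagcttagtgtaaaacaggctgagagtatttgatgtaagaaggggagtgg

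Tyrp1 (chr4:80833963-80834262, plus strand): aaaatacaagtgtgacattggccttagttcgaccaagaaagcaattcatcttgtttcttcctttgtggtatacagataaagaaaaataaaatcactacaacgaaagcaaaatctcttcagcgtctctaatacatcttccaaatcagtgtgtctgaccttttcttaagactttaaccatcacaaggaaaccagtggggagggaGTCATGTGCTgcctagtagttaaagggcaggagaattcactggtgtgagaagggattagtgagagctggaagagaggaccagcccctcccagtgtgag

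Dct (chr14:118052197-118052496, minus strand): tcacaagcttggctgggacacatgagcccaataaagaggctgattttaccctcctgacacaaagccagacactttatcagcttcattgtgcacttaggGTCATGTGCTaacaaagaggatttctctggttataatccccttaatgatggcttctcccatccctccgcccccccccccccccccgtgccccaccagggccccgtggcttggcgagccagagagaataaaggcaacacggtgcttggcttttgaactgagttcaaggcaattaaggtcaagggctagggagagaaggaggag

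The shared run, GTCATGTGCT, has 10 bases and begins 23 bases before the start in Tyr, 48 bases before it in Tyrp1 and 152 bases before it in Dct. It contains CATGTG, an E-box sequence that Mitf is known to bind. On either strand the whole run occurred in 61 of 32851 promoter windows of this length (0.186%), and CATGTG in 14.2% of them. CATGTG was found once in Tyr, once in Tyrp1 and at 2 places in Dct. The palindromic E-box CACGTG, present in 7.15% of windows, was in none of the 3. TAATCC, a sequence bound by Otx factors and present in 7.06% of windows on either strand, was found once each in Tyrp1 and Dct and not in the Tyr window. These matches describe the letters only.

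At E10.5 the 5 genes lay in different parts of the signal range. Dct and Pmel were already among the stronger signals, Tyrp1 was intermediate on its 2 strong probe sets and differed widely between arrays, and Tyr and Mlana were within the range of genes that an embryonic eye is not known to use. No detection calls were used. Each value was therefore given its percentile among the 45037 probe sets of its array that are no controls, beside 21 genes of unrelated adult tissues such as sperm, mammary gland and pancreas. These 21 genes had a median percentile of 37.0 at E10.5 and a highest of 73.1 on any E10.5 array. Dct lay at percentiles 87.1 to 93.9 and Pmel at 83.3 to 93.1, above all 21 genes on every E10.5 array. Tyrp1 lay at percentiles 73.2 to 87.9 on probe set 1439409_x_at and 57.7 to 88.5 on 1415861_at. The suffix x of the first marks probes that may also match other transcripts, and the second has no such mark. Tyr lay at percentiles 9.77 to 47.4 on its strongest probe set, 1456095_at, whose E10.5 mean exceeded that of 9 of the 21 genes. The third Tyrp1 probe set, 1415862_at, lay at percentiles 28.6 to 39.6, with a mean above that of 8 of them. Mlana lay at percentiles 43.2 to 51.9, with a mean above that of 14 of them.

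**Figure D1:**
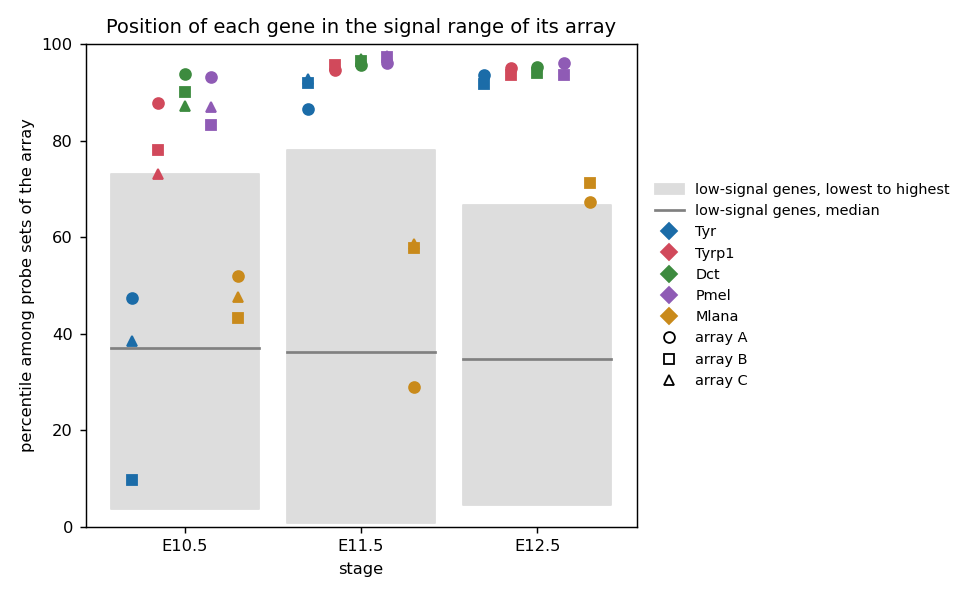
Percentile of the strongest probe set of each gene among all probe sets of the same array, at E10.5, E11.5 and E12.5 (points are arrays, with the letter shown by the symbol). Grey boxes span the 21 genes of unrelated adult tissues, with their median as a line. Dct and Pmel sit above the box at every stage, and Tyr sits inside it at E10.5 and above it at E11.5 and E12.5. Mlana sits inside it until E12.5, when both arrays are above a box that reaches less high than at the earlier stages.

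The signal of Tyr changed the most of the 5 genes. On 1456095_at its log2 signal was 4.25, 3.09 and 3.96 on E10.5 arrays A, B and C, 7.57, 8.81 and 9.28 on E11.5 arrays A, B and C, and 9.67 and 9.10 on E12.5 arrays A and B. The lowest E11.5 array was far above the highest E10.5 array, while E11.5 and E12.5 arrays overlapped. On 1417717_a_at the signals were 4.23, 3.11 and 3.15 at E10.5, 7.32, 8.54 and 9.23 at E11.5, and 8.86 and 8.26 at E12.5. The 2 probe sets thus gave the same order of stages with no shared range between E10.5 and the later stages. In limma, fitted over all 27022 probe sets with Benjamini-Hochberg adjustment, Tyr rose at E11.5 over E10.5 by 4.78 (SE 0.42, adjusted p = 0.00159) on the first and by 4.87 (SE 0.45, adjusted p = 0.00159) on the second. The ratios of signal were 27.6-fold and 29.2-fold. As the E10.5 means exceeded only 9 and 6 of the 21 unrelated genes, these are ratios of array signal and not measured ratios of Tyr RNA. With 64 added to the linear signals before the log2 step, both calls ended (adjusted p = 0.0717 in limma). The median change of all tested probe sets in that comparison was -0.18.

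At E12.5 over E11.5 Tyr did not pass the test on any probe set. The log2 difference of E12.5 over E11.5 was 0.83 (95% interval -0.20 to 1.87, limma adjusted p = 0.399) on 1456095_at and 0.19 (-0.90 to 1.29, adjusted p = 0.893) on 1417717_a_at. Over both days Tyr rose by 5.61 (SE 0.47, adjusted p = 8.19e-05) and 5.06 (SE 0.50, adjusted p = 0.000241). The step of the second day was also set directly against that of the first, as a contrast in the same model. The second step was smaller by 4.67 (SE 0.81, adjusted p = 0.0449) on 1417717_a_at, whereas on 1456095_at the contrast was -3.95 (SE 0.76, adjusted p = 0.0663) and missed the threshold. The first of these calls ended when any of E10.5 B, E10.5 C, E11.5 B, E11.5 C or E12.5 B was left out (adjusted p of 0.0667 to 0.232). The third Tyr probe set, 1448821_at, gave 3.84, 3.46 and 3.59 at E10.5, 3.73, 4.74 and 5.56 at E11.5 and 5.21 and 4.47 at E12.5. It stayed weak throughout and did not pass in any comparison, although both E12.5 arrays were above all E10.5 arrays (E12.5 over E10.5 1.21, SE 0.41, adjusted p = 0.114).

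**Figure D2:**
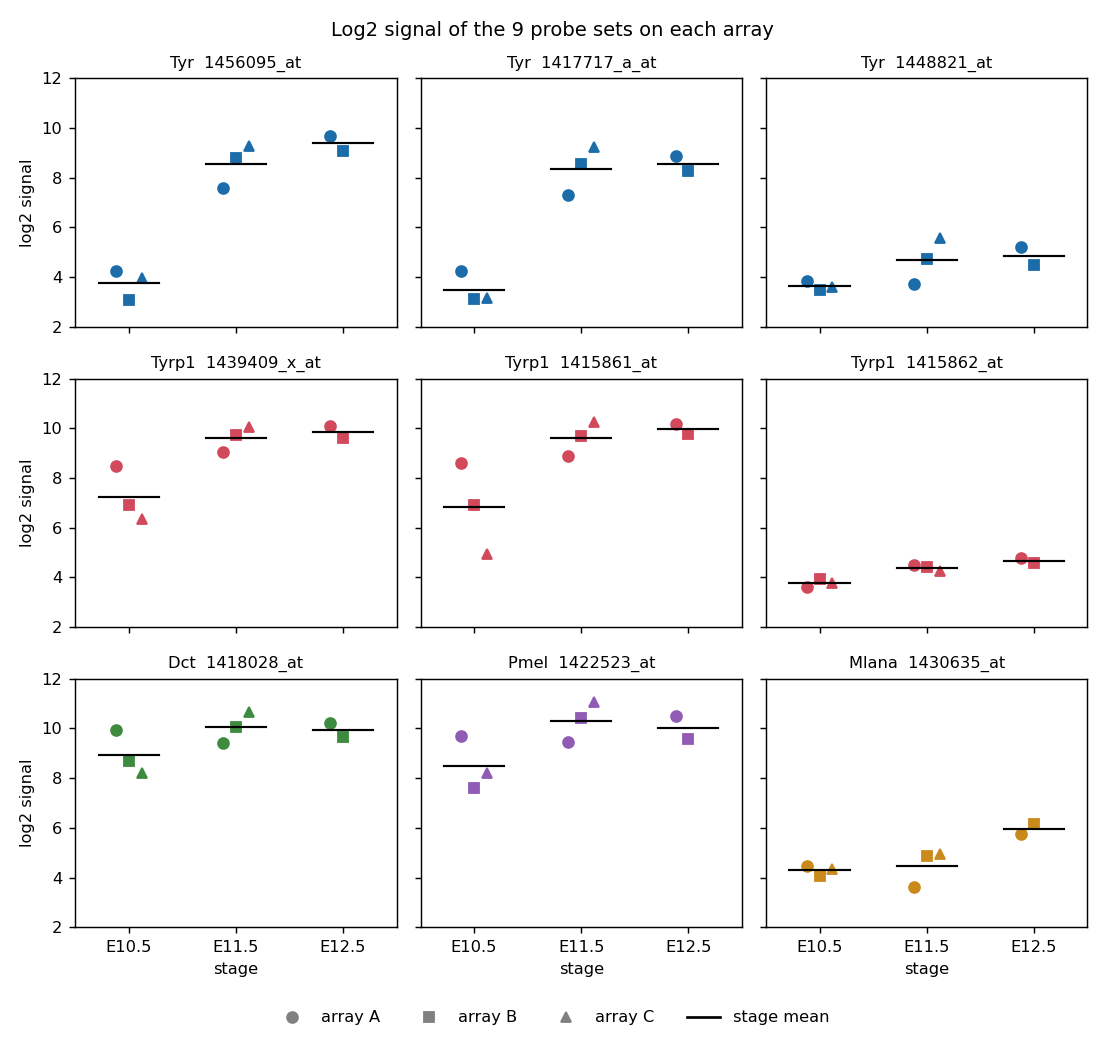
Log2 signal (vertical axis, the same in all panels) of each of the 9 probe sets on each array at E10.5, E11.5 and E12.5. Symbols give the array letter and lines the stage mean. Tyr on 2 probe sets is above 7 on all E11.5 and E12.5 arrays and at most 4.25 on E10.5 arrays, whereas Dct and Pmel on E10.5 array A are as high as on some later arrays.

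On 2 of its 3 probe sets Tyrp1 had a mean above those of all 21 unrelated genes at E10.5, and it rose over both days combined. On 1439409_x_at it read 8.49, 6.89 and 6.36 on E10.5 arrays A to C, 9.04, 9.72 and 10.07 on E11.5 arrays A to C, and 10.10 and 9.59 on E12.5 arrays A and B. On 1415861_at it read 8.61, 6.92 and 4.96 at E10.5, 8.90, 9.68 and 10.25 at E11.5, and 10.18 and 9.79 at E12.5. The E10.5 arrays differed most on 1415861_at (SD 1.83, n = 3), the widest spread of any of the 9 probe sets within a stage, and yet on both probe sets every later array lay above all of them. The difference of E11.5 over E10.5 was 2.36 (SE 0.48, adjusted p = 0.10) on 1439409_x_at and 2.78 (SE 0.70, adjusted p = 0.143) on 1415861_at, and neither passed. Without E10.5 A, the E10.5 array with the strongest pigment gene signals, both passed, at 2.98 (adjusted p = 0.0128) and 3.67 (adjusted p = 0.0294). Without E10.5 C they were 1.92 (adjusted p = 0.182) and 1.84 (adjusted p = 0.216).

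All 3 Tyrp1 probe sets rose at E12.5 over E10.5. The changes were 2.60 (SE 0.54, 6.07-fold, adjusted p = 0.0211) on 1439409_x_at, 3.16 (SE 0.78, 8.91-fold, adjusted p = 0.043) on 1415861_at and 0.91 (SE 0.17, 1.88-fold, adjusted p = 0.0138) on 1415862_at. The last of these was a weak signal, at 3.62, 3.91 and 3.76 at E10.5, 4.49, 4.40 and 4.24 at E11.5 and 4.77 and 4.58 at E12.5, with no overlap between any 2 stages. These calls rested on the pair of E12.5 arrays. Without E12.5 A the adjusted p was 0.134, 0.195 and 0.121 for the 3 in the same order, and without E12.5 B it was 0.125, 0.255 and 0.113. Without E10.5 B the adjusted p was 0.0509 on 1439409_x_at and 0.0714 on 1415861_at. The call on 1415861_at also ended without E10.5 C or any 1 of the E11.5 arrays (adjusted p of 0.0514 to 0.0681). At E12.5 over E11.5 no Tyrp1 probe set passed, with differences of 0.24, 0.38 and 0.30.

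Dct, which isomerises dopachrome, was strong at every stage and did not pass in any comparison. Its log2 signal was 9.93, 8.69 and 8.22 on E10.5 arrays A to C, 9.40, 10.06 and 10.67 on E11.5 arrays A to C, and 10.20 and 9.67 on E12.5 arrays A and B. E10.5 A was above both E11.5 A and E12.5 B, so the stages overlapped. The difference was 1.09 (95% interval 0.12 to 2.07, limma adjusted p = 0.221) for E11.5 over E10.5 and 0.99 (-0.10 to 2.08, adjusted p = 0.271) for E12.5 over E10.5. The upper ends of these intervals correspond to 4.20-fold and 4.23-fold, so a rise of up to that size is within the precision of these arrays. The 27.6-fold and 29.2-fold signal ratios of 2 Tyr probe sets lie outside it, but they began in the range of the unrelated genes. On the third Tyr probe set, 1448821_at, the ratio for E11.5 over E10.5 was 2.06-fold. For E12.5 over E11.5 the difference was -0.10 (-1.20 to 0.99, adjusted p = 0.947).

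Pmel, the fibre protein, had a profile like that of Dct. It read 9.70, 7.60 and 8.20 on E10.5 arrays A to C, 9.48, 10.43 and 11.05 on E11.5 arrays A to C, and 10.50 and 9.57 on E12.5 arrays A and B. Again E10.5 A exceeded E11.5 A and E12.5 B, while the other 2 E10.5 arrays lay below all later arrays. The difference was 1.82 (95% interval 0.65 to 2.99, adjusted p = 0.159) for E11.5 over E10.5, 1.53 (0.23 to 2.84, adjusted p = 0.163) for E12.5 over E10.5 and -0.28 (-1.59 to 1.02, adjusted p = 0.863) for E12.5 over E11.5. None passed after adjustment over all probe sets, although the first 2 had unadjusted limma p-values of 0.00544 and 0.0251.

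Mlana, the Pmel partner, was weak at E10.5 and E11.5 and higher at E12.5. It read 4.48, 4.05 and 4.35 at E10.5, 3.62, 4.87 and 4.94 at E11.5 and 5.76 and 6.16 at E12.5. Both E12.5 arrays were above all earlier arrays, and the E11.5 arrays enclosed those of E10.5. Mlana rose at E12.5 over E10.5 by 1.66 on the log2 signal scale (SE 0.35, limma adjusted p = 0.0222), over an E10.5 signal within the range of the unrelated genes. The difference of E12.5 over E11.5 was 1.48 (SE 0.35, adjusted p = 0.0574), just short of the threshold, and that of E11.5 over E10.5 was 0.18 (-0.50 to 0.86, adjusted p = 0.777). Without E12.5 A, E12.5 B or E10.5 B the rise over both days no longer passed (adjusted p = 0.0529, 0.264 and 0.052), whereas without E11.5 C the difference of E12.5 over E11.5 passed (1.71, adjusted p = 0.0367). At E12.5 its mean exceeded those of all 21 unrelated genes, at percentiles 67.3 and 71.3 on the 2 arrays. Those genes reached at most percentile 66.7 on any E12.5 array, against 73.1 at E10.5 and 78.0 at E11.5. Mlana at E12.5 was thus still below their highest percentile at the earlier stages. For Mlana the second step minus the first was 1.30 (SE 0.56, adjusted p = 0.284), and did not pass. Without E11.5 A it was 0.44 (adjusted p = 0.828).

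Counted over the 9 probe sets, 2 rose and none fell at E11.5 over E10.5, both of Tyr, where 0.0962% of all tested probe sets rose and 0.0296% fell. At E12.5 over E11.5 none passed in limma (1 had an unadjusted p below 0.05, that of Mlana), where 1.62% rose and 0.2% fell. Over both days 6 rose, of Tyr, Tyrp1 and Mlana, where 3.08% rose and 1.56% fell. For the second step minus the first, 1 was lower, where 0.0629% were. The median change of the 9 was 1.82, 0.24 and 1.66 in the 3 pairwise comparisons, against -0.18, 0.10 and -0.08 for all tested probe sets. Arrays of the later stage lay entirely above those of the earlier one for 5 of the 9 at E11.5 over E10.5 (3.57% of all), 2 at E12.5 over E11.5 (29.6% of all) and 7 at E12.5 over E10.5 (19.3% of all). The comparisons share arrays, so these counts are not independent. The exceptions at E12.5 over E10.5 were Dct and Pmel.

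**Figure D3:**
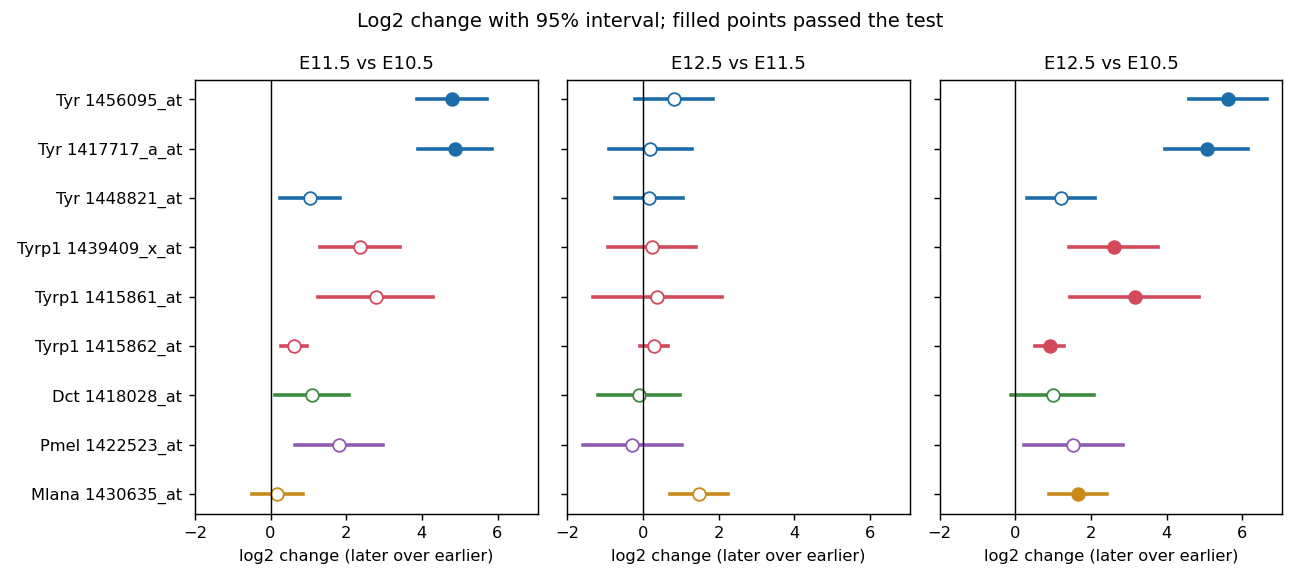
Log2 change of each probe set with its 95% interval from limma in the 3 comparisons of stages (later over earlier), with filled points for those that passed at an adjusted p below 0.05. The 2 strong Tyr probe sets stand near 5 in the first and last panels and the weak one near 1, most intervals in the middle panel include 0, and Mlana is highest in the middle panel.

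The tyrosinase family genes were also read against each other on the same array. Signals of Dct, Pmel, the 3 Tyr probe sets and the 2 strong Tyrp1 probe sets varied in 1 order among arrays of a stage. E10.5 A was highest of its stage, E11.5 A lowest and E11.5 C highest of theirs, and E12.5 A was above E12.5 B. The 99th percentile of the whole array had this order too, so it was not particular to these probe sets. That percentile was 12.91, 12.53 and 12.85 on E10.5 A to C. It was 11.17, 11.81 and 12.37 on E11.5 A to C, and 12.55 and 12.44 on E12.5 A and B. The weak Tyrp1 probe set 1415862_at did not follow this order, with E10.5 A lowest, E11.5 A highest and E11.5 C lowest. The Gapdh 3 prime excess had its highest E10.5 value on A (4.71), was 3.35, 3.94 and 4.63 on E11.5 A, B and C, and at E12.5 was 5.17 for array A and 4.78 for array B. Its part in this order was not tested. The difference between 2 genes on the same array removes what they share. Its size depends on the probes, so only its change between stages was read. Tyr minus Dct was -5.67, -5.61 and -4.26 on E10.5 arrays A to C, -1.83, -1.25 and -1.39 on E11.5 arrays A to C and -0.54 and -0.57 on E12.5 arrays A and B. No 2 stages overlapped, and the difference moved by 3.69 at E11.5 over E10.5 and by a further 0.93 at E12.5 over E11.5. With 64 added to the linear signals the first of these was 1.52 (exact permutation p = 0.00714 for stage). Tyrp1 minus Dct was -1.44, -1.80 and -1.86 at E10.5, -0.36, -0.33 and -0.60 at E11.5 and -0.10 and -0.08 at E12.5. Its stages did not overlap either, and the E10.5 arrays had an SD of 0.23 here, against 1.11 in Tyrp1 itself (n = 3). Both SDs are for 1439409_x_at, the Tyrp1 probe set with the suffix x. The other strong one, 1415861_at, read 8.61, 6.92 and 4.96 on E10.5 A to C, beside 9.93, 8.69 and 8.22 for Dct. It thus lay much further below Dct on array C than on A or B, so the narrow spread does not hold for it. For Tyr the spread was wider in the differences, with E10.5 SDs of 0.80 against Dct and 0.96 against Tyrp1, beside 0.61 in Tyr itself (n = 3). Tyrp1 minus Dct moved by 1.27 over the first day and by 0.34 over the second. Tyr minus Tyrp1 was -4.24, -3.81 and -2.39 at E10.5, -1.47, -0.92 and -0.79 at E11.5 and -0.44 and -0.49 at E12.5, moving by 2.42 and 0.59.

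In an exact permutation test of an F statistic over the 560 assignments of the 8 arrays to stages, the stage effect gave p = 0.00357 for Tyr minus Dct and for Tyrp1 minus Dct, the smallest p the design allows, and p = 0.0214 for Tyr minus Tyrp1. Adjusted over these 3 differences in that exact test, p was 0.00535, 0.00535 and 0.0214. Between 2 stages alone the smallest exact p is 0.10, so single steps could not pass. The Tyr minus Tyrp1 difference lost its call with the other strong Tyrp1 probe set, 1415861_at (exact permutation p = 0.0786), and without E11.5 B (exact permutation p = 0.0571). On these probe sets Tyrp1 thus read higher relative to Dct at each later stage, with means of both above those of all 21 unrelated genes at every stage. The F statistic takes no account of direction. The weak Tyrp1 probe set 1415862_at was not set against Dct in this way. It changed by 0.91 at E12.5 over E10.5, against 0.99 for Dct. Tyr at E10.5 was within the range of the unrelated genes, so the sizes of the 2 differences that hold Tyr are not measured changes of Tyr RNA relative to Dct or Tyrp1.

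**Figure D4:**
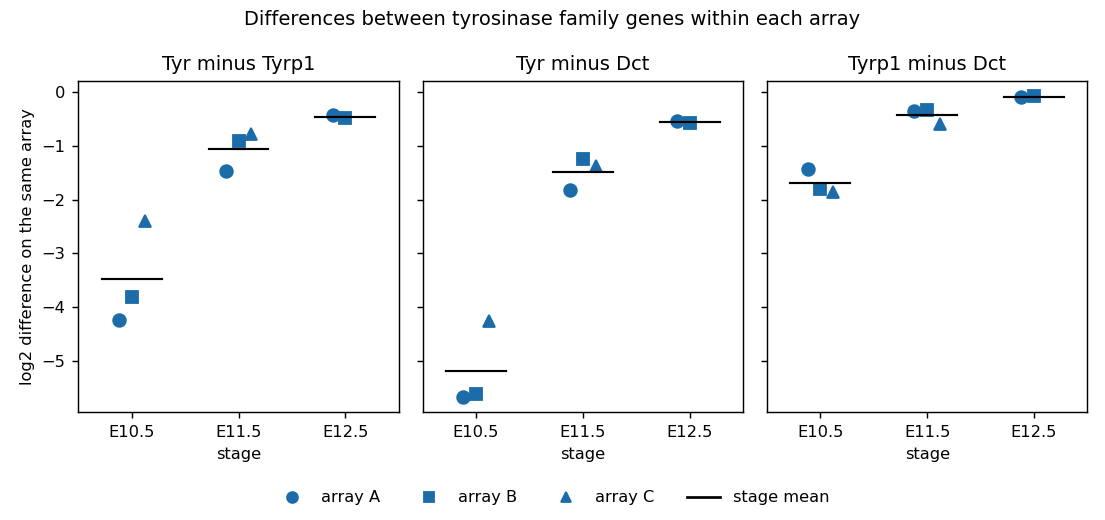
Log2 difference between 2 tyrosinase family genes on the same array (vertical axis) at each stage, with symbols for array letters and lines for stage means, using the strongest probe set of each gene. Tyr minus Dct and Tyrp1 minus Dct are lowest at E10.5 and highest at E12.5, with no overlap between stages in either.

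Other melanosome genes were read from lists. Among 10 tested genes of the melanosome membrane and its ion transport, 2 rose and none fell at E11.5 over E10.5. These were Gpr143, a melanosomal receptor, by 2.73 (SE 0.33, adjusted p = 0.0143), and Oca2, an anion transporter, by 2.13 (SE 0.34, adjusted p = 0.0401). Gpr143 read 3.90, 3.89 and 3.78 at E10.5 and 5.67, 7.10 and 6.99 at E11.5, so it too began in the range of the unrelated genes. Slc45a2, a melanosomal transporter, differed by 1.02 (adjusted p = 0.176). Among 24 tested genes of cargo sorting and movement 2 rose and 22 did not pass. These were Rab38, a GTPase that brings Tyr and Tyrp1 to melanosomes, by 2.22 (SE 0.32, adjusted p = 0.0318), and Mlph, an adaptor for melanosome movement, by 1.13 (SE 0.17, adjusted p = 0.0359). Among 6 genes of fibre processing and Pmel relatives 1 rose, Bace2, a protease that cuts Pmel, by 2.20 (SE 0.29, adjusted p = 0.022). That Bace2 probe set has the suffix x, as has that of Rab38, and a Bace2 probe set without it differed by 1.09 (adjusted p = 0.143). Gpnmb, the Pmel paralogue, differed by 1.21 (adjusted p = 0.144). The list medians were 0.21, -0.34 and 0.71, against -0.22 over 13050 genes with 1 probe set each.

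At E12.5 over E10.5 the first list had 2 genes higher and none lower (Gpr143 and Oca2), and the second had none either way. The third had 1 higher (Bace2) and 1 lower, Apoe, a lipoprotein that takes part in fibril formation, by -1.46 (SE 0.36, adjusted p = 0.0402). The Bace2 call was again on the probe set with the suffix x, and the one without it differed by 1.02 (limma adjusted p = 0.0784). No gene of the 3 lists passed at E12.5 over E11.5. For the second step minus the first, 2 genes of the second list were lower, where 0.0629% of all tested probe sets were. These were Rab38 (-3.41, SE 0.57, limma adjusted p = 0.0428) and Mlph (-1.86, SE 0.30, adjusted p = 0.0396). Rab38 differed by -1.19 (adjusted p = 0.131) and Mlph by -0.73 (adjusted p = 0.0879) at E12.5 over E11.5.

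**Figure D5:**
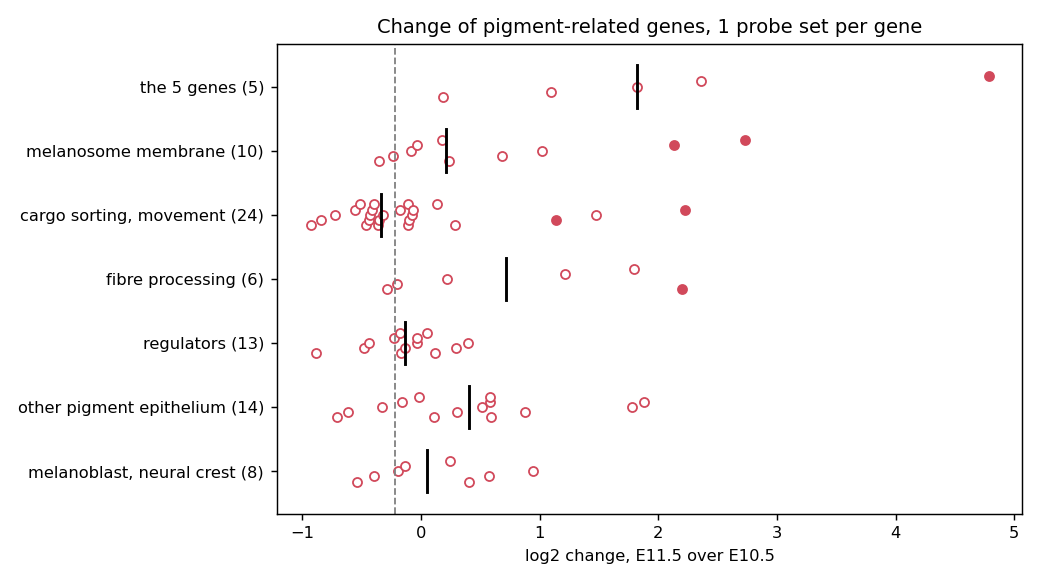
Log2 change of E11.5 over E10.5 for each tested gene (1 probe set per gene) of the 5 genes and of 6 lists, with the number of genes in brackets. Filled points passed at an adjusted p below 0.05, black bars are list medians and the dashed line is the median of all genes. Tyr stands farthest to the right, and no regulator passed.

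None of 13 tested regulators of pigment genes passed at E11.5 over E10.5 or at E12.5 over E11.5. Mitf was strong at all stages, at 10.92, 10.50 and 9.79 on E10.5 arrays A to C, 9.66, 10.40 and 11.05 on E11.5 arrays A to C and 9.77 and 8.67 on E12.5 arrays A and B. Its difference was -0.03 (SE 0.43, adjusted p = 0.976) for E11.5 over E10.5. For E12.5 it was -1.15 (SE 0.48, adjusted p = 0.264) over E11.5 and -1.18 (SE 0.48, adjusted p = 0.182) over E10.5, and neither passed. Otx2, a homeodomain factor of the pigment epithelium, fell at E12.5 over E10.5 by 1.34 (SE 0.34, adjusted p = 0.0469) and was the single regulator called in that comparison.

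Markers of the pigment epithelium other than melanin genes, and of neural crest, were read on the same arrays. Of 14 tested pigment epithelium genes none passed at E11.5 over E10.5, and at E12.5 over E10.5 Rlbp1, a retinoid carrier, was higher (1.71, adjusted p = 0.0295) and Trpm1, a cation channel, lower (-2.73, adjusted p = 0.0191). Linear signals summed over the 18 genes of that list on the array ranged from 2174 to 6293 at E10.5, 2619 to 5420 at E11.5 and 2651 to 3618 at E12.5, so the stages overlapped. These sums are weighted to strong genes such as Trpm1, at 9.70 to 11.73 on E10.5, 9.53 to 10.51 on E11.5 and 7.35 to 8.49 on E12.5 arrays. By gene, 9 of the 14 tested differed upwards at E11.5 over E10.5, with a median of 0.41 against -0.22 for all genes. Rlbp1 differed by 1.88 in that comparison (limma adjusted p = 0.076). Of 8 tested melanoblast and neural crest genes none passed at E11.5 over E10.5, and 4 of them differed upwards, with a median of 0.05. The smallest limma p-values there were those of Tfap2b (0.95, adjusted p = 0.163), Mc1r (0.40, adjusted p = 0.214), Fabp7 (-0.54, adjusted p = 0.275) and Pax3 (0.58, adjusted p = 0.288). Linear signals summed over the 11 crest list genes on the array ranged from 255 to 302 at E10.5, 275 to 288 at E11.5 and 354 to 469 at E12.5. This sum is weighted to its strongest gene at E12.5, Fabp7, which read 7.10 and 7.60 there, against 5.99 to 6.34 at E10.5. Foxd3 and Cdh19, which mark early crest and crest-derived glia, read at most 3.70 and 3.39 on any array and did not pass the filter. Sox10, the crest and melanoblast factor, read 5.10 to 5.76 at E10.5, 5.41 to 5.89 at E11.5 and 5.16 to 5.30 at E12.5. At E12.5 over E10.5 2 of the 8 were higher, Fabp7 (1.16, adjusted p = 0.0448) and Tfap2b (1.41, adjusted p = 0.0388), as Mlana was, and their part in the Mlana result was not tested. Of 9 tested periocular mesenchyme genes 3 were higher at E11.5 over E10.5, Ogn (3.82, adjusted p = 0.00893), Postn (3.15, adjusted p = 0.0401) and Dcn (1.48, adjusted p = 0.0359), with sums of 941 to 1780 at E11.5 against 336 to 469 at E10.5, and the part of this tissue in the Tyr result was not tested. Sums for neural retina genes were 4309 to 7390 at E11.5 against 10665 to 13239 at E10.5, with none of 10 tested genes passing. At E12.5 these sums were 19795 to 26143, with 4 of the 10 genes higher than at E11.5, and their part in the Mlana values was not tested.

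Of lists for other cell types, none of 4 lens, 3 endothelial, 5 erythroid and 4 macrophage genes tested passed at E11.5 over E10.5. At E12.5 over E10.5 1 of them passed, the embryonic globin Hbb-bh1, which fell by 3.12 (SE 0.48, adjusted p = 0.00424).

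Genes whose log2 signal followed each of the 5 most closely were listed by Pearson's r over the 8 arrays, as a description with no test. The arrays share 3 stages, and r takes no account of the size of a change. For Tyr these were Col8a1 (r = 0.991), Kcnq5, Lrsam1, Clu and C1ql3 (r = 0.981 for the last). Col8a1, a short-chain collagen, differed by 3.95 at E11.5 over E10.5, whereas Lrsam1 differed by 0.34. For Tyrp1 they were Tmem176a (r = 0.972), Rlbp1, Gzmm, Bace2 and Pcp4 (r = 0.961), and for Pmel Bace2 (r = 0.963), Gramd1c, Rlbp1, Flrt2 and Fam228b (r = 0.953). Bace2, here by its probe set without the suffix x, and Rlbp1 were on both lists. For Dct they were Asb7 (r = 0.976), Stx3, Prkcb, Kalrn and Frmd6 (r = 0.970), and for Mlana Prkx (r = 0.993), Sh3bgrl, Arrdc3, Atp6v1b1 and Lcor (r = 0.977). Among the 5 genes themselves, strongest probe sets correlated at 0.946 for Dct with Pmel, 0.926 for Tyr with Tyrp1, 0.757 for Tyr with Dct and 0.476 for Mlana with Dct.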

How the data were processed

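The series' deposited values are on a log2 scale. Per the submitters' processing notes GCOS 1.4 is a named tool whose step is unstated, and the authors' probe summary, background and normalization steps were not given in the sources used here. All 64 control probe sets were left out, as was the lowest 40% by mean log2 signal (below 3.94). Names came from the platform's annotation, updated through gene identifiers of RefSeq GRCm38.p6 (34754 of 34958 probe sets with 1 symbol matched), and gene lists used each gene's probe set with the highest mean.

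One linear model was fitted by limma 3.58.1 (R 4.3.3) without further normalization, with stage as factor over 8 arrays (5 residual degrees of freedom), with empirical Bayes moderation and a trend, two-sided, and Benjamini-Hochberg adjustment over 27022 probe sets at a threshold of 0.05. The fit and the exact permutation test were tested on simulated data. Named genes were all member probe sets, the 5 closest patterns per gene, and called or leading list genes. Members and lists were chosen with earlier results of these data known.

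Alternatives were quantile normalization, median centring, pseudocounts of 16 and 64, no filter or one of 60%, no trend, array weights, the replicate letter as a block, each array left out, and 2 arrays left out together, the last chosen after seeing the data, as were all alternatives for the differences between genes.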

Additional observations from a re-analysis of the deposited data

How the results depend on the processing

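The 2 Tyr rises at E11.5 over E10.5 passed in 17 of 18 alternatives, and ended with a pseudocount of 64 (2.51 on 1456095_at and 2.40 on 1417717_a_at, adjusted p = 0.0717 for both). At E12.5 over E10.5 both passed in all 18. Called probe sets of the 9 at E11.5 over E10.5 numbered 2, against 0 with a pseudocount of 64, 8 with array weights (a fit that did not converge fully) and 2 to 4 with 1 array left out, where 4 came without E10.5 A. At E12.5 over E11.5 they numbered 0, against 1 with a pseudocount of 16 or 64 or with E10.5 C and E11.5 A left out, 3 with array weights, and 0 to 1 with 1 array left out. At E12.5 over E10.5 they numbered 6, against 8 with array weights, 3 with the replicate block, under which all 3 Tyrp1 probe sets missed the threshold (adjusted p = 0.0806 on 1439409_x_at, 0.14 on 1415861_at and 0.0597 on 1415862_at), and 2 to 6 with 1 array left out. For the second step minus the first they numbered 1, against 0 with median centring, either pseudocount, no filter, no trend or the replicate block, 2 after quantile normalization or with E10.5 C and E11.5 A left out, 7 with array weights, and 0 to 2 with 1 array left out. Where a stage was left with 1 array, that array was assumed to vary like the others.

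Deviations from stage means correlated at -0.394, -0.113 and -0.377 for letters A, B and C between E10.5 and E11.5. For letters A and B they correlated at 0.127 and 0.068 between E10.5 and E12.5, and at -0.139 and 0.015 between E11.5 and E12.5. So few arrays cannot settle whether the letters pair the samples, and the replicate block was kept as an alternative only. The change of Tyr minus Tyrp1 at E11.5 over E10.5, 2.42, became 0.60 with a pseudocount of 64 (exact permutation p = 0.111), 2.01 with the other Tyrp1 probe set and 3.17 with E10.5 C and E11.5 A left out, and its range with 1 array left out was 2.04 to 2.96. Tyr minus Dct, 3.69, became 1.52 with a pseudocount of 64. With those 2 arrays left out, Tyr minus Dct was 4.32 and Tyrp1 minus Dct 1.15 (exact permutation p = 0.0667 for all 3 differences, the smallest that 6 arrays allow).

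Sign changes occurred in values that had not passed. For E12.5 over E11.5 these were -0.11 (1415861_at), -0.17 (1417717_a_at) and -0.27 (1439409_x_at) after quantile normalization, -0.33 (1417717_a_at), -0.0481 (1439409_x_at) and -0.31 (1448821_at) without E11.5 A, alone or with E10.5 C, -0.11, -0.02 and -0.20 for the same 3 without E12.5 A, 0.21 (Dct) and 0.08 (Pmel) without E11.5 C, and 0.16 (Dct) and 0.18 (Pmel) without E12.5 B. Mlana at E11.5 over E10.5 was -0.014 without E11.5 B and -0.0495 without E11.5 C, and 1448821_at gave 0.008 for the second step minus the first without E11.5 C. With 1 array left out, these differences ranged from -0.0495 to 0.61 for Mlana and, for E12.5 over E11.5, from -0.33 to 0.63 (1417717_a_at), -0.0481 to 0.49 (1439409_x_at), -0.31 to 0.61 (1448821_at), -0.43 to 0.21 (Dct) and -0.75 to 0.18 (Pmel), and the second step of 1448821_at from -1.82 to 0.008. Over all tested probe sets 34 passed at E11.5 over E10.5, 492 at E12.5 over E11.5, 1255 at E12.5 over E10.5 and 65 for the second step minus the first. The alternatives gave 0 to 5017, 78 to 12520, 169 to 3371 and 11 to 12051, the upper ends with array weights. Causes were not tested.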
